A study of Mus musculus with 4 samples.

Results

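The 41 nuclear genes that encode the subunits of respiratory chain complexes II, III and IV, the electron carrier cytochrome c and ATP synthase (complex V) were followed among 20197 measured genes in 4T1 cells that differed in mitochondrial membrane potential (MMP). They were chosen by what their proteins are, with no use of expression: 4 genes of complex II, 9 of complex III, *Cycs*, 12 of complex IV and 15 of complex V. All 41 had values, 15 of them under an older symbol, since the subunits of ATP synthase have been renamed. Subunits encoded by the mitochondrial genome and all of complex I were outside this choice and serve only for comparison.

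4T1 is a single, established line of mouse mammary tumor cells that form lung metastases. Wild-type 4T1 cells grown in DMEM with 10% serum were stained with 20 nM MitoSpy Red, a dye that accumulates in mitochondria according to their MMP, and the brightest 5% (high MMP) and the dimmest 5% (low MMP) were collected by flow cytometry. RNA from 100000 cells per sample was sequenced from a stranded mRNA library, with 2 libraries of high MMP cells and 2 of low MMP cells. The labels do not say whether libraries of a group came from separate cultures. The paper's legend for this comparison counts its replicates as independent experiments, without saying which libraries were sorted together. The p-values measure only the spread between the libraries analysed here. No untreated or unsorted sample was analysed here, and the comparison asks whether the genes of the machinery that builds and uses the membrane potential differ between its extremes.

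In the respiratory chain, complex II passes electrons from succinate to ubiquinone, complex III passes them on to cytochrome c, and complex IV hands them to oxygen. Complexes III and IV pump protons out of the matrix, complex II does not, and complex V lets protons back in to make ATP. Complex II is wholly nuclear-encoded, whereas complexes III, IV and V join nuclear subunits to subunits made inside the mitochondrion, and nuclear respiratory factor 1 (NRF1) and ETS family proteins are known to bind the promoters of many of the nuclear genes.

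Promoters are shown for 3 members whose values mark the ends of what the libraries showed: *Atp5me*, which differed most between the high MMP libraries, *Cox6a1*, which differed most in the opposite direction, and *Cycs*, which had the largest difference between the groups. The sequences are from RefSeq on build GRCm38.p6 and run from 250 bases before to 50 bases after the start of the transcript, 5′ to 3′ on the strand of the gene, which is the minus strand in each case. *Atp5me* lies at chr5:108434350-108434649, *Cox6a1* at chr5:115348909-115349208 and *Cycs* at chr6:50566520-50566819. Capitals mark an NRF1 motif (GCGCATGC, or GCATGCGC on the other strand) or an ETS motif (CCGGAAG, or CTTCCGG).
Atp5me: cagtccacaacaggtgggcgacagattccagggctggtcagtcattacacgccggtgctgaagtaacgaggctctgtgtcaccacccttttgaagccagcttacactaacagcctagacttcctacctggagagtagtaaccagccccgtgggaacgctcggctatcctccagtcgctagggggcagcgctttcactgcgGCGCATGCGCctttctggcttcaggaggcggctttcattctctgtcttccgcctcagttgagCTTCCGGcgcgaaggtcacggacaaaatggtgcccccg
Cox6a1: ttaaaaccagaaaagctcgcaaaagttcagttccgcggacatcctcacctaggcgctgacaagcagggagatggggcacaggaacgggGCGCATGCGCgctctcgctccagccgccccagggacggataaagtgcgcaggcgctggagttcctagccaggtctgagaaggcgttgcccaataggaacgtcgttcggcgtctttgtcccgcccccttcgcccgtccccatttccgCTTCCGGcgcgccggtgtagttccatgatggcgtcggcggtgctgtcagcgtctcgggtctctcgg
Cycs: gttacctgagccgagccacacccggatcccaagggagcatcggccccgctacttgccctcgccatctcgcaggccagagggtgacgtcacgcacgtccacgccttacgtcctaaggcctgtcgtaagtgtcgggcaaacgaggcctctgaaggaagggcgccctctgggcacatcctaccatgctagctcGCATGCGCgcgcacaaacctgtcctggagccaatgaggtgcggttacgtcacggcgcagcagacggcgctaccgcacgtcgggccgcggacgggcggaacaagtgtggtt
In *Atp5me* and *Cox6a1* the capitals of the NRF1 motif are 10 bases that read the same on both strands, so the motif is found once on each strand with an overlap. Windows were available for 33 members, some with more than 1 start, which gave 36 windows. The NRF1 motif was in 8 of these 36 windows (22.2%) and in 2.71% of 32851 promoter windows of all genes, and the ETS motif was in 12 (33.3%) and in 8.86%. Both motifs stood together in 5 member windows, those of *Sdhb*, *Cox6a1*, *Uqcr11*, *Atp5me* and *Atp5mg*, against 0.521% of all windows. These are matches of letters and not sites of binding. In the 5 members with both motifs, high MMP 1 minus high MMP 2 on the log2 scale was 0.60 for *Atp5me*, 0.40 for *Uqcr11* and 0.19 for *Sdhb*. It was -0.003 for *Atp5mg* and -0.23 for *Cox6a1*. A link with the motifs was not tested.

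The libraries held 22591970 to 26395015 reads, and values are normalized reads per 20000000, so 1 read is worth 0.758 to 0.885 units. All 6 epithelial markers examined were present (*Krt7*, *Krt8*, *Krt18*, *Krt19*, *Epcam* and *Cdh1*, together 47117 to 65235 units). Leukocyte and endothelial markers were at or near 0 (at most 7 reads of any gene), 1 of 6 and 2 of 4 of them having values, adipocyte markers had at most 4 reads, and 0 of 3 erythroid markers had values. Of the fibroblast markers only *Pdgfra* was above 12 reads. It was at 319 and 363 units in high MMP 1 and 2 and at 536 and 589 units in low MMP 1 and 2 (adjusted p = 0.472 by limma, called by DESeq2). Its part in the results was not tested. High MMP 1 stood apart from the other libraries: the mitochondrial genome took 1.35% of its reads and 2.15% to 2.37% in the others, and values with and without it are given below. In bulk samples, fewer cells of a kind and less RNA per cell cannot be told apart.

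No member passed the test between high and low MMP cells. The limma test across all 20197 genes called 0 of the 41 members at an adjusted p under 0.05, where 0% of all genes were called. In simulated data with 2 libraries per group this fit made no call, so its count of 0 cannot tell change from no change. Limma limited to genes whose mean was 10 or more, which made calls in the simulation, also called 0 members and 0% of its genes. By limma over all genes, 0 members had an unadjusted p under 0.05, which 9.96% of all genes had (8.21% in the limited fit). The lowest adjusted p of a member was 0.624 by limma, 0.768 by edgeR and 1.00 by DESeq2, and edgeR and DESeq2 on the reads called 0 members as well. DESeq2 called 0.985% of the genes it tested and edgeR none (0%), or 0.39% with the replicate number as a block, again with 0 members. Differences are in log2(value + 1), with low MMP subtracted from high MMP. They ran from -0.18 for *Cox6a1* to 0.20 for *Cycs*, with a median of 0.03 over the members and -0.04 over all genes, and 30 members were above 0 and 11 below.

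The precision of these differences can be read from their intervals. The 95% limma intervals of all 41 members lay inside a 2-fold change in either direction, and those of 38 lay inside a 1.5-fold change. The exceptions were *Uqcrh*, *Cycs* and *Atp5me*, and the widest bounds were -0.68 (*Uqcrh*) and 0.70 (*Atp5me*). When the fit was limited to the 12902 genes whose mean was 10 or more, all 41 intervals lay inside 1.5-fold.

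**Figure D1:**
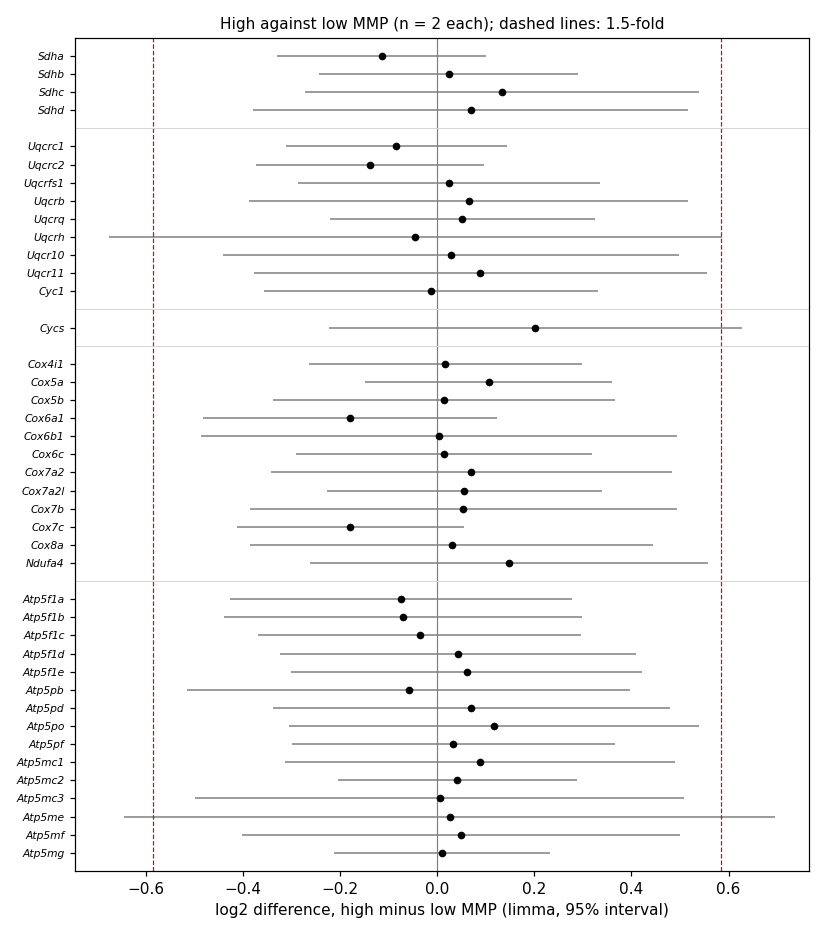
Log2 difference, high minus low MMP, for each of the 41 members in order of complex II, III, cytochrome c, IV and V, with its 95% limma interval (2 libraries per group). All intervals cross 0, and those of Uqcrh, Cycs and Atp5me reach past the dashed lines at 1.5-fold.

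No member was higher in both high MMP libraries than in both low MMP libraries, against 13.5% of all genes. In 6 members (14.6%) both high MMP libraries were below both low MMP libraries, against 24.5% of all genes. These 6 were *Sdha*, *Uqcrc1*, *Uqcrc2*, *Cox6a1*, *Cox7c* and *Atp5f1b*. Among genes whose mean was 10 or more the shares were 14.3% and 23.7%. With the deposited scaling the members' shares were thus below the background in both directions. The counts depend on the scaling: with TMM or median-of-ratios scaling, 2 members were above and 4 below. The share of all genes on those scales is not given here.

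The members were ordered by library more than by group. In 33 of 41 (80.5%) the highest value was in high MMP 1, as in 25.1% of all genes, and in 29 (70.7%) the lowest was in high MMP 2, as in 29.9% of all genes. High MMP 1 was above high MMP 2 in 37 members, by a median of 0.30 on the log2 scale (all genes -0.02), and low MMP 2 was above low MMP 1 in 37 members, by a median difference of -0.11 for low MMP 1 minus low MMP 2 (all genes -0.01). This median of 0.30 within the high MMP group was larger than the largest difference of a member between the groups. Against low MMP 1, the median of the members was 0.22 in high MMP 1 and -0.06 in high MMP 2, and against low MMP 2 it was 0.12 and -0.17. The sign of the median therefore depended on which high MMP library was used: it was -0.11 without high MMP 1 and 0.19 without high MMP 2.

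**Figure D2:**
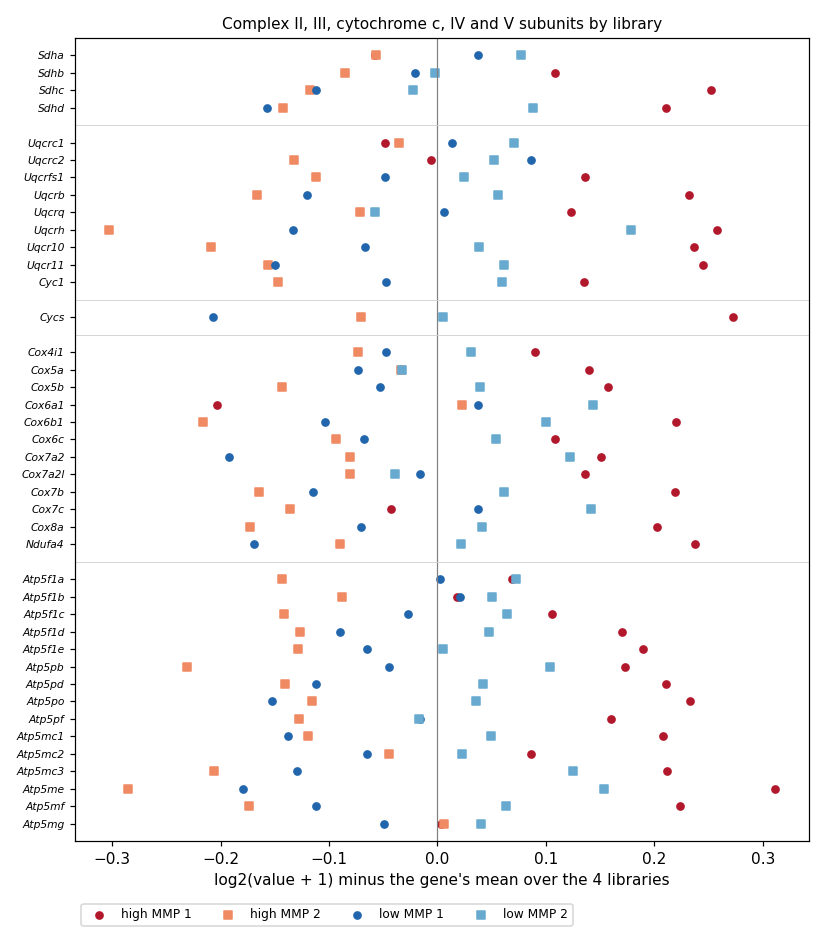
Each member's log2(value + 1) in the 4 libraries minus its mean over them, with high MMP in red and orange and low MMP in dark and light blue. High MMP 1 is rightmost in 33 of the 41 rows and high MMP 2 leftmost in 29, with the low MMP libraries mostly between them.

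Other gene groups of high expression were also mostly highest in high MMP 1. In high MMP 1, 28 of 36 complex I subunits and 72 of 79 cytosolic ribosomal protein genes (91.1%) had their highest value, and their medians for high MMP 1 minus high MMP 2 were 0.25 and 0.31. The summed epithelial markers were 65235 in high MMP 1, 47117 in high MMP 2, 54640 in low MMP 1 and 62591 in low MMP 2, which is the order of the members' sum. *Krt7*, *Krt8*, *Krt18* and *Krt19* were highest in high MMP 1, whereas *Epcam* was highest in low MMP 2 (4619, against 4261 in high MMP 1) and *Cdh1* was lowest in high MMP 1 (3903, against 4726 in high MMP 2, 5421 in low MMP 1 and 5426 in low MMP 2). Their part in the result was not tested.

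Transcript length moved with this difference as well. Across 12877 genes whose mean was 10 or more, the difference between the high MMP libraries had a Spearman correlation of -0.31 with exon length, and that between low MMP 1 and low MMP 2 one of 0.22, whereas the difference between the groups had -0.0008. The genes share the same libraries, and the values are a description. Over the 41 members, most of which are short (371 to 4715 bases, median 838), the correlations with transcript length were -0.32, 0.35 and -0.12. The 29 members under 1500 bases had a median of 0.32 for high MMP 1 minus high MMP 2 and the 12 longer ones 0.23, with *Sdha* and *Uqcrc1* among the longer ones slightly lower in high MMP 1. The part of length in the result was not tested.

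**Figure D3:**
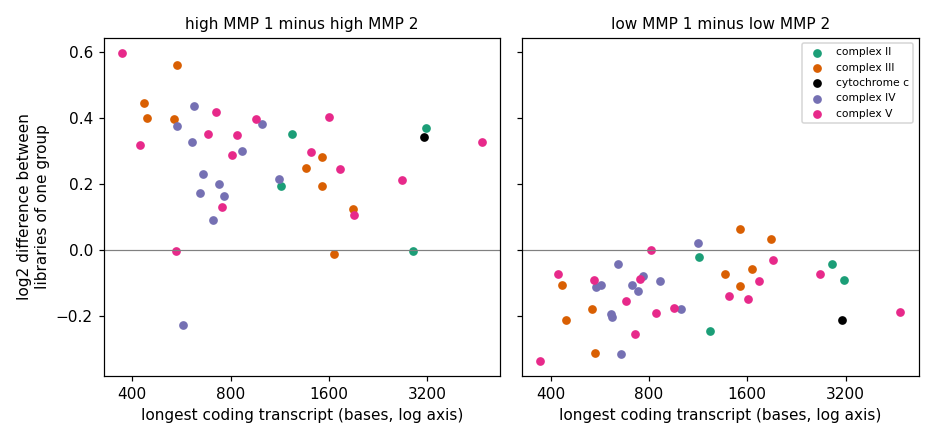
Difference between libraries of one group (log2 scale) against the length of the transcript (bases, log axis) for the 41 members, coloured by complex. High MMP 1 minus high MMP 2 lies above 0 for 37 members at all lengths, and low MMP 1 minus low MMP 2 lies below 0 for 37.

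The proportions between the complexes differed little among the libraries. The 41 members together took 0.811% of the reads in high MMP 1, 0.697% in high MMP 2, 0.736% in low MMP 1 and 0.785% in low MMP 2. Of this sum complex V took 54.2% and 54.3% in high MMP 1 and 2 and 55.2% and 54.9% in low MMP 1 and 2. In the same order complex IV took 21.7% and 21.6% against 20.8% and 21.2%. Complex III took 14.79% and 14.78% against 14.95% and 14.82%. The groups did not overlap in these shares, by small margins. In complex II, at 7.75% to 7.94%, they overlapped. The shares add up to 100%, so they are not independent, and their differences were not tested. Cytochrome c took 1.54% in high MMP 1, 1.41% in high MMP 2, 1.21% in low MMP 1 and 1.32% in low MMP 2. The groups did not overlap in this share either, and it moved most in proportion to its size. Cytochrome c is 1 gene beside sums over 4 to 15 genes, so this ranking does not compare like with like. Relative to the median member of each library, *Cycs* ranged over 0.19 on the log2 scale, and some single members ranged more widely (*Cox6a1* 0.53).

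Complex II, the succinate dehydrogenase, had a median difference of 0.05. *Sdha* encodes the flavoprotein that oxidizes succinate (chr13:74322254-74350280, minus strand). It was at 4674 in high MMP 1, 4679 in high MMP 2, 4991 in low MMP 1 and 5132 in low MMP 2. Both high MMP libraries were below both low MMP libraries, with a difference of -0.11 ± 0.08 (SE) that did not pass the test (adjusted p = 0.752 by limma). The iron-sulfur subunit *Sdhb* was at 2479 and 2167 in high MMP 1 and 2 and at 2266 and 2296 in low MMP 1 and 2, so the groups overlapped. The membrane anchors had a wider gap between the high MMP libraries, with *Sdhc* at 2372, 1836, 1844 and 1962 and *Sdhd* at 3041, 2381, 2356 and 2793 in the same order of libraries. Both anchors had their highest value in high MMP 1. In high MMP 2, *Sdhc* was below both low MMP libraries and *Sdhd* lay between them. Per kb of exon length, *Sdhd* had the highest level of complex II (2147 units per kb) and *Sdhc* the lowest (616).

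Complex III had a median difference of 0.02, and of -0.13 without high MMP 1. Its large core proteins *Uqcrc1* and *Uqcrc2*, which face the matrix, were both lower in the high MMP libraries. *Uqcrc1* was at 5803 and 5853 in high MMP 1 and 2 and at 6057 and 6300 in low MMP 1 and 2, a difference of -0.08 ± 0.08 (SE). *Uqcrc2* was at 3288 and 3013 against 3506 and 3422, a difference of -0.14 ± 0.09 (SE, adjusted p = 0.713 by limma). Neither difference passed the test. The catalytic subunits, the Rieske iron-sulfur protein *Uqcrfs1* and cytochrome c1 (*Cyc1*), were highest in high MMP 1 and lowest in high MMP 2, with differences of 0.02 and -0.01. The small subunits *Uqcr10*, *Uqcr11* and *Uqcrb* had the highest levels of the complex per kb (2470, 2274 and 2087) and a wider gap within the high MMP group. *Uqcr10* was at 1689 and 1240 in high MMP 1 and 2 and at 1369 and 1472 in low MMP 1 and 2. The hinge protein *Uqcrh*, chosen after its values were seen, had the widest gap of the complex, at 1976 and 1339 against 1506 and 1870. For *Uqcrb*, 29.1% of the stretches of 75 bases in its transcript also occur in transcripts of other genes, so its reads may be split.

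*Cycs* encodes somatic cytochrome c, the soluble carrier between complexes III and IV (chr6:50562563-50566538, minus strand). It was at 2494 in high MMP 1, 1966 in high MMP 2, 1789 in low MMP 1 and 2072 in low MMP 2. High MMP 1 was the highest, and high MMP 2 lay between the low MMP libraries, so the groups overlapped. The difference of 0.20 ± 0.16 (SE) was the largest of the members and did not pass the test (adjusted p = 0.779 by limma), with an interval of -0.22 to 0.63. Of its 75-base stretches, 26.1% are shared with other annotated genes, all of them with *Gm10053*.

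Complex IV, cytochrome c oxidase, had a median difference of 0.02, with 10 of its 12 members above 0. *Cox4i1*, the regulatory subunit with the highest level per kb (4221), was at 6957 and 6211 in high MMP 1 and 2 and at 6326 and 6678 in low MMP 1 and 2. Its difference was 0.02 ± 0.10 (SE). *Cox8a* and *Cox6b1*, a membrane subunit and a subunit on the side of cytochrome c, followed per kb of exon length (3362 and 2951), with differences of 0.03 and 0.00. Their rank depends on the length used, since *Cox6c* has 3567 exon bases but a transcript of 738 bases. The groups overlapped in *Cox4i1*, *Cox8a* and *Cox6b1*.

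*Cox6a1*, a regulatory subunit (chr5:115345642-115348981, minus strand), had the largest difference between the high MMP libraries in the direction opposite to most members. It was at 1637 in high MMP 1, 1915 in high MMP 2, 1934 in low MMP 1 and 2081 in low MMP 2. High MMP 1 was thus its lowest library, one of 3 members for which this was so, and high MMP 2 was just below low MMP 1. The difference was -0.18 ± 0.11 (SE, adjusted p = 0.711 by limma). *Cox7c* had the lowest p of all members. It was at 1400 and 1312 in high MMP 1 and 2 and at 1479 and 1591 in low MMP 1 and 2, a difference of -0.18 ± 0.09 (SE, adjusted p = 0.624 by limma), and 25.0% of its stretches are shared with other genes. Both genes were below the low MMP libraries in each high MMP library, and neither passed the test.

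The 3 members that sit at the edge of the complex were highest in high MMP 1, but their lowest libraries differed. *Ndufa4*, once counted with complex I and now placed with complex IV, was at 4495 and 3581 in high MMP 1 and 2 and at 3389 and 3869.5 in low MMP 1 and 2, a difference of 0.15 ± 0.15 (SE). *Cox7a2* was at 2005 and 1708 against 1581 and 1965, and both genes were lowest in low MMP 1. Its relative *Cox7a2l*, which takes part in joining complexes III and IV into supercomplexes, was at 2801 and 2411 against 2521 and 2480.5, lowest in high MMP 2. The groups overlapped in all 3 genes. Their differences of 0.15, 0.07 and 0.06 were no larger than their standard errors.

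Complex V had a median difference of 0.03. Its catalytic head is formed by the α and β subunits, *Atp5f1a* and *Atp5f1b*, with the γ subunit *Atp5f1c* as the central stalk. *Atp5f1b* (chr10:128083273-128090391, plus strand) was at 33652 in high MMP 1, 31267 in high MMP 2, 33730 in low MMP 1 and 34415 in low MMP 2. It had the highest level of all members, also per kb (7851), and both high MMP libraries were below the low MMP libraries, though high MMP 1 only just. Its difference was -0.07 ± 0.14 (SE). *Atp5f1a* was at 17578 and 15173 against 16788 and 17622, and *Atp5f1c* at 6796 and 5726 against 6197 and 6603. The head subunits thus had differences of -0.07, -0.07 and -0.04, and none passed the test. *Atp5po*, the stalk subunit that confers oligomycin sensitivity, had the largest difference of complex V (0.12 ± 0.16, SE), at 959 and 753 against 734 and 837. In *Atp5po* 27.1% of the stretches are shared with other genes.

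The small membrane subunits of complex V included the extremes of the gap between the high MMP libraries. *Atp5me*, chosen after its values were seen, was at 1185 in high MMP 1, 783 in high MMP 2, 843 in low MMP 1 and 1062 in low MMP 2. The gap between the high MMP libraries was 0.60 on the log2 scale, the largest of the 41 members, whereas the difference between the groups was 0.03 ± 0.25 (SE). *Atp5mg* was at 670 and 671 in high MMP 1 and 2 and at 646 and 687 in low MMP 1 and 2, and it was the member with the lowest mean and one of the few with no gap between the high MMP libraries. As 63.4% of its stretches are shared with other genes, its level is uncertain.

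The c subunit, whose ring turns as protons pass, is encoded by *Atp5mc1*, *Atp5mc2* and *Atp5mc3*, which yield the same mature protein with different import sequences. Their shares of the reads of all 3 are free of library scaling. *Atp5mc3* gave most of the reads in each library: 62.4% (95% Wilson interval 61.4 to 63.3) in high MMP 1, 59.7% (58.6 to 60.8) in high MMP 2, 61.2% (60.1 to 62.3) in low MMP 1 and 63.0% (61.9 to 64.0) in low MMP 2. *Atp5mc1* gave 24.3% and 24.8% in high MMP 1 and 2 and 23.8% and 23.3% in low MMP 1 and 2. *Atp5mc2* gave 13.4% and 15.6% against 15.0% and 13.7%. The *Atp5mc1* share was the only one without overlap, 24.5% ± 0.323 (SD, n = 2) in high and 23.6% ± 0.324 (SD, n = 2) in low MMP cells (two-sided exact permutation p = 0.333). With 2 libraries against 2 this is the smallest p that the permutation can give. The p was 1 for *Atp5mc2* and 0.667 for *Atp5mc3*, and the smallest Benjamini-Hochberg value over the 6 relations tested this way was 1. The intervals cover counting error only.

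**Figure D4:**
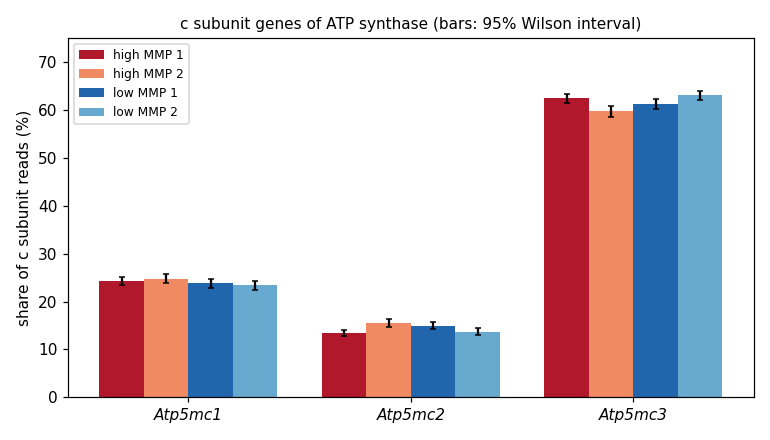
Share of the c subunit reads (%) from each of its 3 genes in the 4 libraries, with 95% Wilson intervals for counting error. Atp5mc3 gives 59.7% to 63.0%, and the order of the libraries differs between the genes.

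The mitochondrially encoded partners had another order. *mt-Cytb*, the mitochondrial subunit of complex III, was at 50250 in high MMP 1, 88587 in high MMP 2, 85562 in low MMP 1 and 89849 in low MMP 2. *mt-Co1*, the catalytic subunit of complex IV, was at 77366, 132707, 130053 and 142989 in the same order, and 39.8% of its 75-base stretches also occur in other annotated genes. Both were lowest in high MMP 1, where most nuclear members were highest, and neither passed the test (adjusted p = 0.801 and 0.788 by limma). *mt-Co2*, *mt-Co3* and *mt-Atp6* had at most 65 reads in a library, and 99.5% to 99.9% of their 75-base stretches also occur in other annotated genes. *mt-Atp8* had 3 to 5 reads. Their levels are not interpretable here.

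The ratio of *mt-Cytb* to the summed nuclear subunits of complex III was 2.10 in high MMP 1, 4.30 in high MMP 2, 3.89 in low MMP 1 and 3.86 in low MMP 2. For complex IV, where it rests on *mt-Co1*, the ratio was 2.20, 4.41, 4.25 and 4.29. One library of 4 was low, and high MMP 2 lay above both low MMP libraries in both complexes. The difference in the log2 ratio was -0.37 for complex III and -0.45 for complex IV (two-sided exact permutation p = 1 for each). Without high MMP 1 it was 0.15 and 0.05. For complex V the ratio rests on 20 to 40 mitochondrial reads in a library and is not read.

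**Figure D5:**
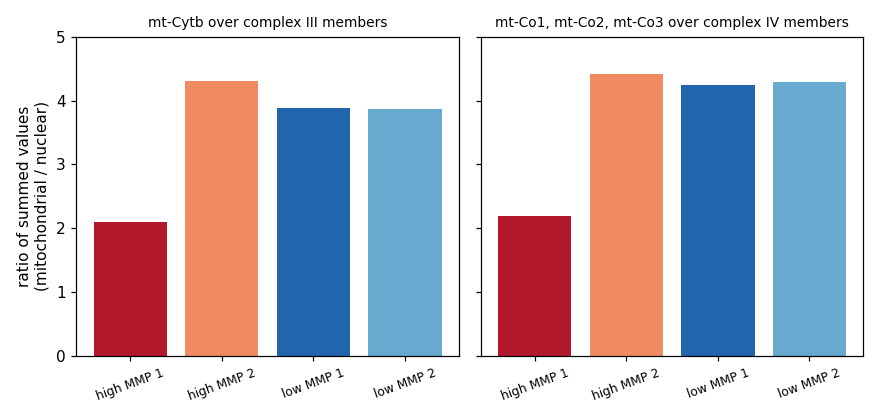
Ratio of the mitochondrially encoded to the summed nuclear-encoded values of complex III (left) and complex IV (right) in each library. High MMP 1 stands at 2.10 and 2.20, and the other 3 libraries lie between 3.86 and 4.41.

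Of the assembly factors that build these complexes, 38 of 39 listed had values, and limma called 0 of them, as did edgeR and DESeq2. An unadjusted p under 0.05 was found for 2 of the 38, both lower in high MMP cells, which is not above the 9.96% of all genes. Both high MMP libraries were above both low MMP libraries in 7 assembly factors (13.5% of all genes) and below in 6 (24.5% of all genes). *Sdhaf1*, which serves the iron-sulfur clusters of complex II, was at 60.6 and 65.3 in high MMP 1 and 2 and at 104 and 89.4 in low MMP 1 and 2 (-0.61 ± 0.17, SE, adjusted p = 0.472 by limma). *Cox17*, a copper chaperone of complex IV, was at 34.9 and 27.6 against 46.2 and 69.1 (-0.84 ± 0.30, SE, adjusted p = 0.478 by limma). In both the groups did not overlap, and both rest on few reads (78 to 119 for *Sdhaf1*, 33 to 78 for *Cox17*). *Sdhaf4*, which assists the flavoprotein of complex II, went the other way, at 159 and 162 against 133 and 120 (adjusted p = 0.523 by limma). The median over the assembly factors was -0.002, with 19 above 0 and 19 below.

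Of 16 tissue-restricted isoforms and regulators, 9 had values, and 0 were called by limma, edgeR or DESeq2, with 0 at an unadjusted p under 0.05 by limma. *Cox7a1*, the isoform of heart and skeletal muscle, had 0 to 2 reads. *Higd2a*, which takes part in supercomplex formation, was at 593 and 583 in high MMP 1 and 2 and at 651 and 671 in low MMP 1 and 2. *Atp5mj*, a small protein bound to ATP synthase, was at 1597 and 1179 against 1155 and 1354, highest in high MMP 1 and lowest in low MMP 1. Neither difference passed the test (adjusted p = 0.614 and 0.902 by limma).

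The common order of the libraries can be set aside by giving each member relative to the median member of its library, a scale chosen after the data were seen. The median range of a member over the 4 libraries was 0.32 on the log2 scale before and 0.15 after. On this scale *Cycs* was 0.05 and 0.00 above the median member in high MMP 1 and 2 and at -0.14 and -0.04 in low MMP 1 and 2. *Cox6a1* was at -0.56 in high MMP 1 and at -0.04, -0.03 and -0.03 in high MMP 2, low MMP 1 and low MMP 2, so its gap lay in high MMP 1 alone. *Cox7c* was at -0.79 and -0.58 against -0.42 in both low MMP libraries. *Sdha* was at 0.95 and 1.25 against 1.34 and 1.27. Both high MMP libraries were below both low MMP libraries in 14 members (34.1%, against 26.3% of genes whose mean was 10 or more, on this scale) and above in 3, *Sdhc*, *Cycs* and *Ndufa4* (7.32%, against 5.8%). The scale is centred on these same members, so their shares and those of other genes are not comparable. Before centring, the shares were 14.6% of members against 23.7% of such genes below, and 0% against 14.3% above.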

How the data were processed

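RNA was measured in 4 libraries of sorted 4T1 cells, 2 of high MMP and 2 of low MMP, grouped by their titles. The authors aligned reads to GRCm38 (mm10) with STAR and counted them per gene with HTSeq, per the submitters' processing notes. Tool versions, the annotation and the treatment of multi-mapping reads are not given in the sources used here. The authors scaled every library to the same total and retained genes found in at least 2 libraries, so the deposited values are a normalized signal per gene that sums to 20000000. Dividing each value by the value of 1 read gave whole reads for 100% of values (tolerance 0.01 reads). Identifiers were matched to GENCODE release M21 (19993 of 20197), 75-base stretches of transcripts were compared between its genes, and 0 columns belonged to no sample.

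The members and lists were chosen with earlier results of these data known. The members were taken by what their proteins are, with no use of their values. The test was limma 3.58.1 on log2(value + 1) (a trend on mean expression, Benjamini-Hochberg adjustment over all genes, threshold 0.05) in R 4.3.3. On this scale the changes of low genes are understated. The recovered reads were tested with edgeR 4.0.16 (quasi-likelihood) and DESeq2 1.42.0. Each fit was tested on simulated data with known changes: limma over all genes gave the right sizes but made no call with 2 libraries per group, whereas limma on genes with a mean of at least 10, edgeR and DESeq2 made calls, so its count of 0 is given beside theirs. Ratios and shares were compared with exact permutation tests (SciPy 1.17.1), and per-kb levels use the summed exon length.

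Genes were named by a rule: the 3 highest per kb and the largest difference in each complex, all of complex II, *Cycs*, the c subunit genes, *Cox7a2*, *Cox7a2l* and *Ndufa4*, members without overlap, the mitochondrially encoded partners, and the 3 of smallest p in each of the assembly factor and isoform lists. Members named outside it were chosen after their values were seen. Replicates differed by more than sampling noise (chi-square per gene 43.2 in high and 9.08 in low MMP). The alternatives were other pseudocounts, a filter on the mean, other scalings, no variance trend, a replicate block, count models and leaving out each library.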

Additional observations from a re-analysis of the deposited data

How the results depend on the processing

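Limma called 0 genes; edgeR with a replicate block called 52, DESeq2 118, and edgeR with no filter and a replicate block 106, with 0 members in each. Whether the replicate numbers mark pairs of libraries is not known. Deviations of same-numbered libraries correlated at -0.42 over genes whose mean was 10 or more, which cannot show how the cells were sorted. With the numbers crossed, a fit added after seeing the data, edgeR called 621 of 13329 genes and 0 members. In that fit 1 member was at an unadjusted p under 0.05, and the share of all genes at that p was not counted. Leaving out 1 library leaves 1 in its group, so only differences are given, for members chosen after their values were seen. *Uqcrc2* was at -0.20 without high MMP 1. Without high MMP 2, *Sdhc*, *Cox5a* and *Atp5pf* were at 0.32, 0.19 and 0.18.

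The median difference of all members was 0.028, between 0.0279 and 0.084 under other pseudocounts, filters, scalings, variance models and count models. It ran from -0.108 to 0.186 when a library was left out, that of complex II from -0.0906 to 0.183, of complex III from -0.134 to 0.149, of complex IV from -0.0771 to 0.175 and of complex V from -0.111 to 0.191. Each of these was negative without high MMP 1 and without low MMP 1. Without high MMP 1, 16 of 25 named members changed sign. With median-of-ratios and TMM scaling, the difference of *Sdha* shrank from -0.114 to -0.0727 and -0.0767. That of *Uqcrc1* shrank from -0.0841 to -0.0427 and -0.0467. After quantile normalization they were -0.13 and -0.0869.

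Members without overlap were 6 (0 above, 6 below), also 6 with TMM or median-of-ratios scaling (2 above, 4 below), 7 after quantile normalization and 17 when centred on the median member (3 above, 14 below). The difference in the log2 ratio of mitochondrial to nuclear values, high minus low MMP, also moved when a library was left out. It ran from -0.887 to 0.151 for complex III and from -0.957 to 0.0469 for complex IV. For complex V, which rests on 20 to 40 mitochondrial reads in a library and is not read, it ran from -1.19 to 0.17. In each complex it was positive only without high MMP 1. The difference in the *Atp5mc2* share ran from -0.977 to 1.25 percentage points and that of *Atp5mc3* from -2.43 to 0.248, and these signs rest on single libraries. The causes were not tested. With 2 libraries per group, differences smaller than the limma intervals could not be resolved.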
